A study of Mus musculus with 12 samples.

Results

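The 2′-5′-oligoadenylate synthetase (OAS) family was examined in mouse oral squamous carcinoma cells with and without paclitaxel. The members were the 7 genes whose symbol in the deposited table is Oas1a, Oas1b, Oas1g, Oas2, Oas3, Oasl1 or Oasl2, out of 55421 Ensembl genes. All 7 were among the 18108 genes with enough counts to be tested.

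RNA came from MOC2, a mouse oral squamous cell carcinoma line, in 2 derivatives, MOC2-25, labelled EV-proficient, and MOC2-27, labelled EV-deficient. Extracellular vesicles (EVs) are membrane particles shed by cells. The study asked what vesicles from senescent tumour cells do, and blocked their release genetically through a gene that the labels do not name. Each derivative was sampled in culture with DMSO, the drug's solvent, and with paclitaxel, which stabilises microtubules and served to make the cells senescent (600 nM, 48 h). That gave 4 groups of 3 libraries, 12 in all, and the labels do not say whether each derivative was 1 clone or how the 3 replicates of a group were separated, so p-values measure only the spread between these libraries. The comparisons ask how the drug changed the family in each derivative, how the derivatives differed within a treatment, and whether the drug effect differed between them.

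OAS proteins bind double-stranded RNA and, where they are catalytically active, link ATP into short oligoadenylates, which act as messengers of the antiviral response. The family is a classical set of interferon-stimulated genes: type I and type III interferons act through a transcription factor complex, with STAT2 and IRF9 among its parts, that binds interferon-stimulated response elements in promoters. In tumour cells these genes are also known to respond to nucleic acids of the cell's own that reach the cytosol.

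The libraries held between 23263472 and 62955757 counts, EV-proficient paclitaxel replicate 3 being the smallest. Values are given as CPM, counts per 1e+06 of the library's size after scaling by trimmed mean of M values, and on this scale a floor of 3 counts came to between 0.0492 and 0.121 CPM, for counting error only. The carcinoma markers Krt8, Krt18, Krt14, Cdh1 and Epcam were high, and the 8 markers of that list summed to 5050 to 5490 CPM with DMSO and 3620 to 3980 CPM with paclitaxel in the EV-proficient label and to 5410 to 5860 and 3160 to 3290 CPM in the EV-deficient label, but Krt5 and Trp63, markers of basal squamous cells, had at most 0.171 and 0.180 CPM in any library. The sum hides members that differed: Krt14 averaged 191 CPM with and without the drug in the EV-proficient label but fell by 3.09 ± 0.07 (SE) on the log2 scale from 681 CPM in the EV-deficient label, and Epcam went from 407 to 816 and from 439 to 535 CPM. Of the 7 leukocyte markers, Cd3e and Lyz2 were at or near 0, and the list's sum ran from 7.78 to 8.96 CPM in EV-proficient DMSO, 40.5 to 45.9 in EV-proficient paclitaxel, 21.2 to 22.1 in EV-deficient DMSO and 27.5 to 47.6 in the EV-deficient paclitaxel group, mostly Cd68 and Csf1r. Cd68, a lysosomal protein of macrophages, was at 6.47 ± 0.41 CPM with DMSO and 30.1 ± 2.0 CPM with paclitaxel in the EV-proficient label and at 7.92 ± 0.53 and 30.0 ± 8.9 CPM in the EV-deficient label (SD, n = 3 each). Csf1r, a macrophage growth factor receptor, moved in opposite directions, from 0.944 ± 0.164 to 11.6 ± 0.8 CPM in the EV-proficient label and from 12.4 ± 0.5 to 5.34 ± 1.54 CPM in the EV-deficient label (SD, n = 3 each; edgeR quasi-likelihood adjusted p 2.76e-12 and 8.20e-07). The 4 fibroblast markers summed to 1.34 to 2.49 CPM in EV-proficient DMSO and 5.26 to 5.96 CPM in EV-proficient paclitaxel libraries, and to 2.38 to 3.16 and 6.29 to 7.83 CPM in the EV-deficient groups, so this sum was higher with the drug in both labels. The 3 endothelial markers summed to 2.31 to 2.49 and 2.55 to 3.02 CPM in the EV-proficient and 1.69 to 2.32 and 3.28 to 4.26 CPM in the EV-deficient label. The part of these 4 lists in the OAS results was not tested.

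The authors' table has 2 added rows, gfp and dngfr. The gfp row was at 0 in every library. The dngfr row, named like a truncated nerve growth factor receptor commonly used to mark transduced cells, did not divide the libraries by EV label. It averaged 8.99 ± 3.23 CPM with DMSO and 3.24 ± 0.68 CPM with paclitaxel in the EV-proficient label, but 2.15 ± 0.35 CPM with DMSO and 10.9 ± 1.4 CPM with paclitaxel in the EV-deficient label (SD, n = 3 each). The lowest library of the EV-proficient DMSO and EV-deficient paclitaxel groups (5.73 CPM) lay above the highest of the other groups (3.76 CPM). The labels do not say which derivative carries the sequence. Each EV direction above and below is thus one between labels, and the paclitaxel comparisons are also given against the DMSO libraries of the other label. So set, the Csf1r means were 11.6 against 12.4 CPM in EV-proficient and 5.34 against 0.944 CPM in EV-deficient paclitaxel libraries. Krt14 was lower with the drug in both cases, at 191 against 681 CPM and at 80 against 191 CPM.

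All 7 members lie on mouse chromosome 5 in GRCm38, the build in the submitters' processing notes, with gene models from GENCODE M21. Oasl2 (chr5:114896936-114912234, plus strand) and Oasl1 (chr5:114923240-114937915, plus strand) are neighbours. In the second cluster, Oas2 (chr5:120730333-120749853, minus strand) and Oas3 (chr5:120753098-120777661, minus strand) lie beside the Oas1 genes. Those are Oas1b (chr5:120812635-120824163, plus strand), Oas1g (chr5:120876142-120887613, minus strand) and Oas1a (chr5:120896256-120907521, minus strand). Oas1b is annotated as a polymorphic pseudogene, since common laboratory strains carry a truncated copy. Of the 100-base stretches in the exons of Oas1a, 40.9% occur unchanged in Oas1g, and 31.2% of those of Oas1g occur in Oas1a, so reads could be split or discarded between these paralogs and both values are uncertain. For the other 5 members 0% of such stretches were shared with any gene. Exons of Oasl1 overlap those of Gm13822 on the opposite strand, and whether counting used strand is not given in the sources used here. Gm13822 had at most 9 counts in a library.

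RefSeq promoter sequences (GRCm38.p6) were given for 5 of the members. They are shown because every member rose under the drug while these promoters differ in their exact matches to the motifs defined below. The last 120 bases before each start are printed 5′ to 3′ on the gene's strand, with capitals for matches to GAAA, any 2 bases, GAAA (the core of an interferon-stimulated response element) or to TTC, any 3 bases, GAA (the core of a STAT-binding element).
Oas1a (chr5:120907526-120907645, minus strand): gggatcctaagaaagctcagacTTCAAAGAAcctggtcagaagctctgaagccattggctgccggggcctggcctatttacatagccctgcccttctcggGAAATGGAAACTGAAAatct
Oas1g (chr5:120887614-120887733, minus strand): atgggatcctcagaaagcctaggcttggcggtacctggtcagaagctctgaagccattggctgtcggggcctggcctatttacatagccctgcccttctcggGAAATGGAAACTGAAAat
Oas3 (chr5:120777660-120777779, minus strand): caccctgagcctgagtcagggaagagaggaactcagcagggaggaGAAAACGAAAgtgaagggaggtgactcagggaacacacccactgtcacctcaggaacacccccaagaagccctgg
Oasl1 (chr5:114923120-114923239, plus strand): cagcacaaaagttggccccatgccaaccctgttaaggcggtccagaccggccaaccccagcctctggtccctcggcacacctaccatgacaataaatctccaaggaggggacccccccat
Oasl2 (chr5:114896814-114896933, plus strand): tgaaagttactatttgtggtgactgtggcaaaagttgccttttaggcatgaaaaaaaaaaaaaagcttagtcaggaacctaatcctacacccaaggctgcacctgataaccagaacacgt

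Both motifs were searched on both strands over the 250 bases before the start. The response element core was found in 2.98% and the STAT core, which reads the same on both strands, in 7.04% of 32544 promoters of that length. Oas1a and Oas1g each had 2 response element cores that overlap by 4 bases, within the last 20 bases before the start, and their printed stretches were identical at 91.5% of 118 aligned bases. Oas3 had 1 such core, from 75 to 66 bases before its start. The STAT core matched in Oas1a alone of the 5, from 98 to 90 bases before the start. Neither pattern occurred in the 250 bases before Oasl1 or Oasl2, which says only that these letters are not in that window.

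Under paclitaxel, RNA of every member was higher in both derivatives. In the libraries labelled EV-proficient 7 of 7 members passed the test as higher, where 31.1% of all tested genes were called higher, and in those labelled EV-deficient 7 of 7, where 32.4% were (27.1% and 30.5% were called lower; edgeR's quasi-likelihood test, Benjamini-Hochberg adjusted p under 0.05 over the 18108 genes). In neither derivative did the drug and DMSO libraries overlap for any member, which held in the higher direction for 33.1% and 35.2% of all genes. The members' median log2 fold change was 3.10 in the EV-proficient and 5.40 in the EV-deficient label, against 0.05 and 0.07 over all genes. Both medians were the same with Oas2 set at its lower bound. More RNA per cell and more cells expressing a gene cannot be told apart in bulk RNA.

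**Figure D1:**
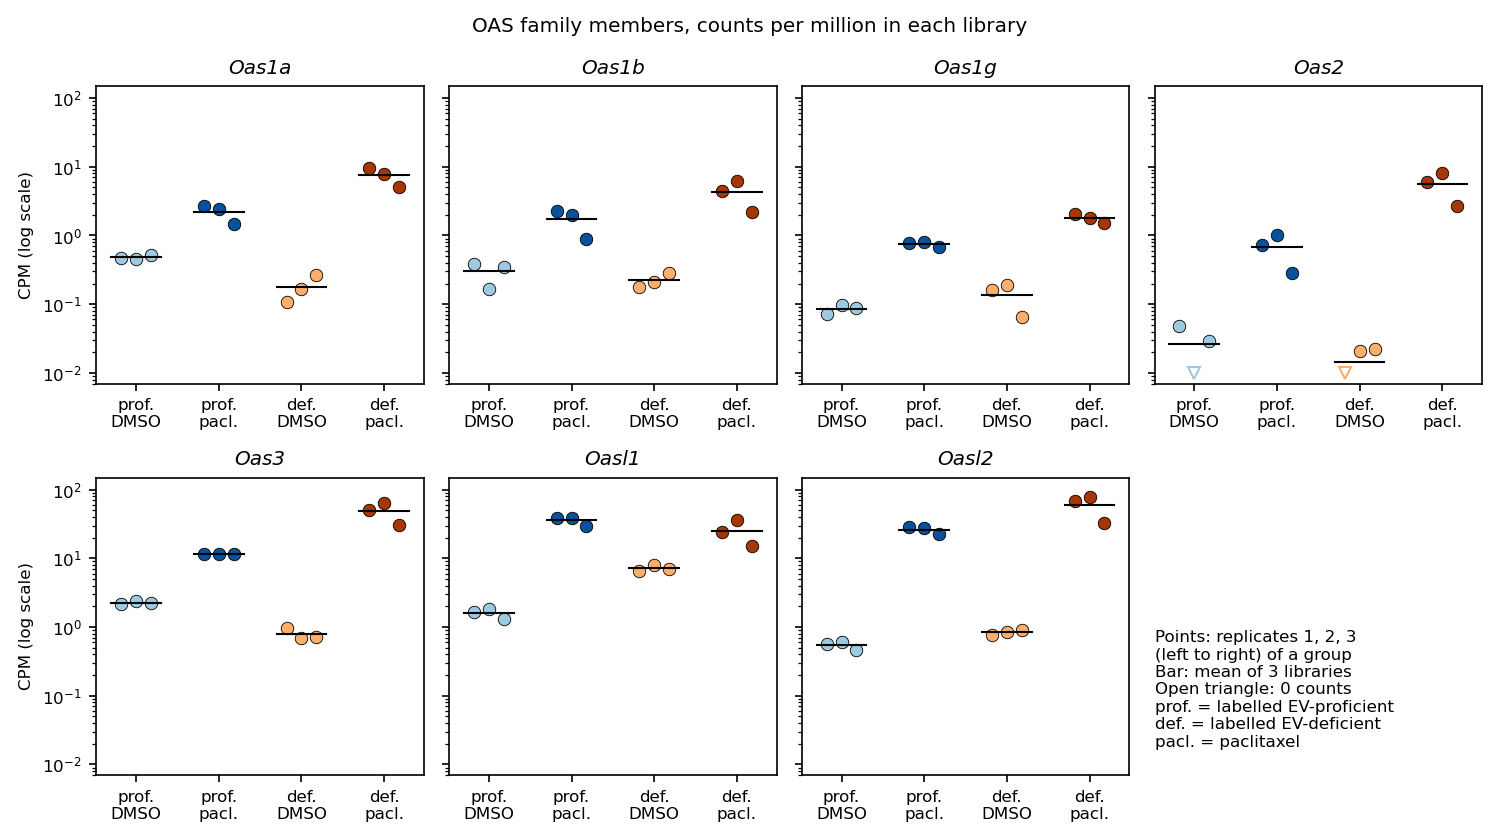
CPM (log axis) of the 7 OAS family members in each of the 12 libraries, with the 3 replicates of a group as points from left to right and their mean as a bar; open triangles mark libraries with 0 counts of Oas2. In each panel the paclitaxel points lie above the DMSO points of the same EV label, and EV-deficient paclitaxel replicate 3 is the lowest of its group for 7 of 7 members.

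Of the OAS1 genes, Oas1a encodes an active synthetase. Its level was 0.463, 0.455 and 0.527 CPM in the EV-proficient DMSO libraries (replicates 1, 2 and 3, an order kept below) and 2.69, 2.41 and 1.46 CPM under paclitaxel. In the EV-deficient label it was 0.107, 0.167 and 0.263 CPM with DMSO and 9.69, 7.77 and 5.04 CPM with the drug. The EV-deficient libraries were thus the lowest without the drug and the highest with it, with no overlap between any groups. The log2 fold change with the drug was 2.21 ± 0.31 (SE) in the EV-proficient and 5.40 ± 0.34 in the EV-deficient label (edgeR quasi-likelihood adjusted p 2.81e-06 and 1.14e-11). Against the DMSO libraries of the other label it was 3.65 ± 0.35 and 3.96 ± 0.30 (SE).

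Oas1g, another OAS1 paralog, stayed low. It had 0.0731, 0.0957 and 0.0878 CPM in EV-proficient DMSO libraries, which is 3 to 4 counts, and 0.771, 0.791 and 0.688 CPM under paclitaxel. The EV-deficient libraries held 0.161, 0.188 and 0.0658 CPM with DMSO and 2.03, 1.82 and 1.51 CPM with the drug. The DMSO groups overlapped and the paclitaxel groups did not. Its fold changes were log2 3.10 ± 0.46 and 3.65 ± 0.40 (SE; edgeR quasi-likelihood adjusted p 5.80e-06 and 6.06e-08), and 2.41 ± 0.41 and 4.34 ± 0.44 (SE) against the DMSO libraries of the other label.

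Oas1b, which is best known for resistance to flaviviruses in mice with a full-length copy and lacks synthetase activity, was at 0.390, 0.168 and 0.351 CPM in EV-proficient DMSO and at 2.25, 1.99 and 0.890 CPM in EV-proficient paclitaxel libraries. With the EV-deficient label the values were 0.178, 0.209 and 0.285 CPM and then 4.44, 6.19 and 2.18 CPM. The DMSO groups overlapped, and so did the paclitaxel groups, since EV-deficient replicate 3 lay between EV-proficient replicates 1 and 2. The drug effect was log2 2.54 ± 0.43 and 4.24 ± 0.43 (SE; edgeR quasi-likelihood adjusted p 3.14e-05 and 1.78e-08), and 2.97 ± 0.43 and 3.81 ± 0.42 (SE) against the DMSO libraries of the other label.

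Oas2 and Oas3 encode the larger synthetases, built of repeated OAS units, and Oas3 prefers long double-stranded RNA. Oas2 was at the floor without the drug, with 0 to 2 counts in each of the 6 DMSO libraries. Under paclitaxel it reached 0.731, 1.00 and 0.283 CPM in the EV-proficient label (37, 57 and 7 counts) and 6.09, 8.07 and 2.69 CPM in the EV-deficient label. Against the 3-count floor of each library, averaged over the DMSO group, this was at least 8.67-fold and at least 92.7-fold higher (edgeR quasi-likelihood adjusted p 1.49e-05 and 3.21e-10).

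Oas3 replicates lay close together in the EV-proficient label. Its level was 2.19, 2.37 and 2.25 CPM in EV-proficient DMSO and 11.4, 11.6 and 11.7 CPM in EV-proficient paclitaxel libraries. The EV-deficient libraries went from 0.964, 0.688 and 0.724 CPM to 51.1, 62.9 and 31.0 CPM. As for Oas1a, no groups overlapped and the EV-deficient label held both the lowest and the highest group. The drug effect was log2 2.35 ± 0.20 in the EV-proficient and 5.91 ± 0.22 in the EV-deficient label (SE; edgeR quasi-likelihood adjusted p 1.95e-09 and 7.99e-15). Against the DMSO libraries of the other label it was 3.85 ± 0.22 and 4.41 ± 0.20 (SE).

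The OAS-like genes carry ubiquitin-like repeats at the end of the protein. Oasl2 is an active synthetase in the mouse, while Oasl1 is inactive as an enzyme and is known to restrain translation of Irf7, a transcription factor that amplifies interferon production. Oasl2 was at 0.560, 0.598 and 0.468 CPM in EV-proficient DMSO and at 28.7, 27.5 and 22.5 CPM in EV-proficient paclitaxel libraries. In the EV-deficient label it went from 0.767, 0.834 and 0.899 CPM to 68.3, 77.3 and 32.5 CPM. The EV-deficient libraries were the higher ones under both treatments, with no overlap. Its drug effects were among the largest of the members, at log2 5.59 ± 0.30 and 6.15 ± 0.27 (SE; edgeR quasi-likelihood adjusted p 1.89e-12 and 5.44e-14). Against the DMSO libraries of the other label they were 4.99 ± 0.27 and 6.75 ± 0.29 (SE).

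Oasl1 was higher in the EV-deficient libraries already without the drug. It was at 1.66, 1.84 and 1.29 CPM in EV-proficient DMSO libraries but at 6.48, 7.99 and 7.06 CPM in EV-deficient DMSO libraries. Under paclitaxel it was at 38.5, 38.1 and 30.0 CPM in the EV-proficient and 24.0, 36.1 and 15.2 CPM in the EV-deficient label. The DMSO groups were far apart, and the paclitaxel groups overlapped through EV-deficient replicate 2. Its drug effect was log2 4.47 ± 0.25 in the EV-proficient and 1.80 ± 0.20 in the EV-deficient label (SE; edgeR quasi-likelihood adjusted p 3.28e-12 and 8.88e-08). Against the DMSO libraries of the other label the order turned, at 2.32 ± 0.20 and 3.96 ± 0.25 (SE).

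**Figure D2:**
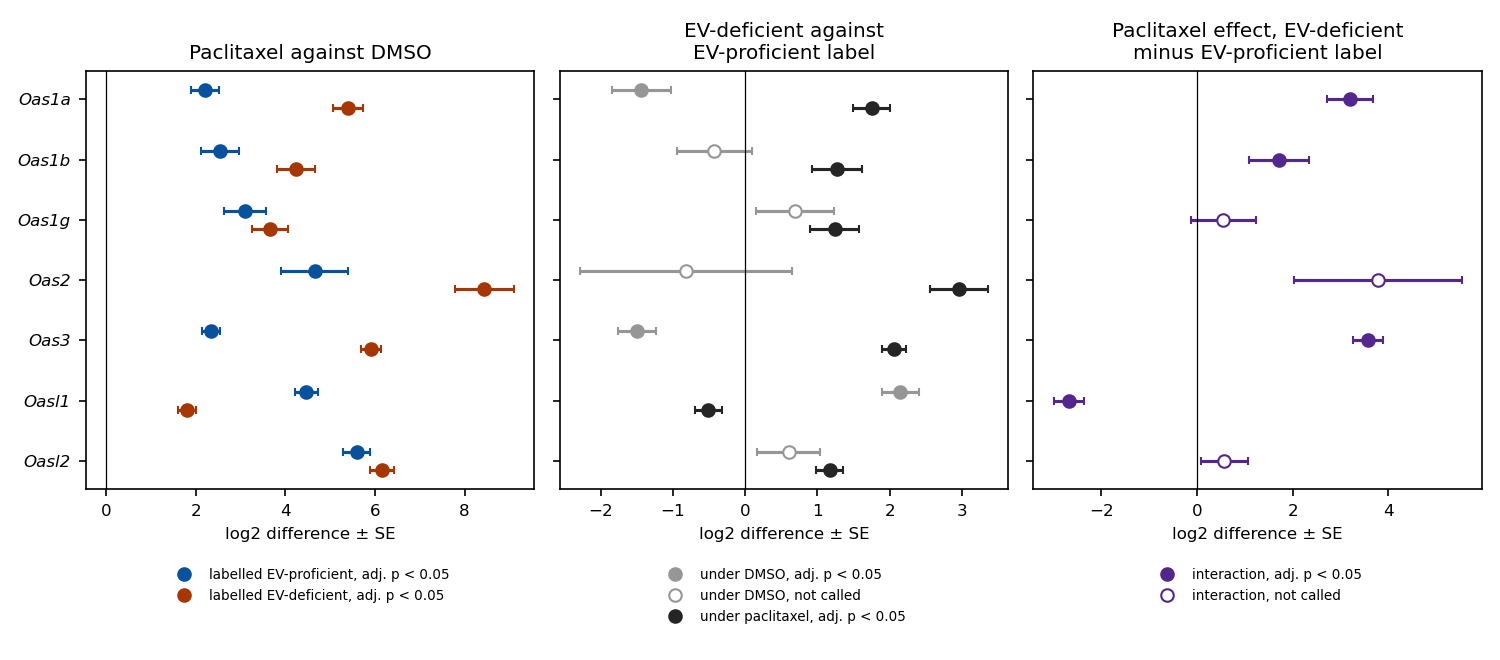
Log2 differences with standard errors for the 7 members: left, paclitaxel against DMSO in each EV label; middle, EV-deficient against EV-proficient under each treatment; right, the difference between the drug effects. Filled points passed the test and open points did not. Oasl1 is the member whose drug effect was smaller in the EV-deficient label, with an interaction of -2.67.

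With the DMSO libraries of the other EV label as controls, all 7 members were again higher and the groups did not overlap. The share of all genes that did so in these comparisons was not computed. The median log2 fold change over all genes was 0.05 for EV-proficient and 0.1 for EV-deficient paclitaxel libraries. The log2 fold change ran from 2.32 (Oasl1) to 5.48 (Oas2) for EV-proficient paclitaxel against EV-deficient DMSO libraries, and from 3.81 (Oas1b) to 7.63 (Oas2) for EV-deficient paclitaxel against EV-proficient DMSO libraries. The members' medians were 3.65 (the value of Oas1a) and 4.34 (that of Oas1g), closer together than with the DMSO libraries of the same label. The fitted values of Oas2 are no bounds, since its DMSO libraries were at the floor. The rise under paclitaxel was therefore present whichever DMSO group was used.

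Without the drug, 3 of the 7 members differed between the EV labels, where 23% of all genes did, 12.4% higher and 10.6% lower in the EV-deficient label. Oasl1 was higher in the EV-deficient libraries by log2 2.15 ± 0.26 (SE; edgeR quasi-likelihood adjusted p 1.51e-06). Oas3 and Oas1a were lower there, by log2 -1.50 ± 0.26 and -1.44 ± 0.41 (adjusted p 0.00018 and 0.0142, edgeR quasi-likelihood). With limma-voom both lost their call, leaving 1 member, and Oas1a also lost it without EV-deficient DMSO replicate 1 (log2 -1.15). Oas1b (log2 -0.43), Oas1g (0.69) and Oasl2 (0.60) did not pass the test, and Oas2 was at the floor in both groups.

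Under paclitaxel, 6 members were higher in the EV-deficient libraries, where 16% of all genes were called higher, and Oasl1 was lower, where 21.8% were. The differences were log2 2.96 ± 0.40 for Oas2, 2.06 ± 0.17 for Oas3, 1.75 ± 0.25 for Oas1a, 1.27 ± 0.35 for Oas1b, 1.24 ± 0.34 for Oas1g and 1.17 ± 0.19 for Oasl2 (SE; largest edgeR quasi-likelihood adjusted p 0.00619). For Oas1b the call was lost without EV-deficient paclitaxel replicate 2 (log2 0.92). The lower level of Oasl1 was slight, at log2 -0.51 ± 0.19 (SE; edgeR quasi-likelihood adjusted p 0.0374), its groups overlapped, and it was not called by DESeq2, with upper-quartile scaling, with a filter of 1 CPM in 3 libraries, from the paclitaxel groups alone, or without EV-proficient paclitaxel replicate 1 or 2 or EV-deficient paclitaxel replicate 1 or 3 (log2 from -0.49 to -0.25). The 3 libraries of the EV-deficient paclitaxel group spread widely, with replicate 3 the lowest for 7 of 7 members. In the EV-proficient paclitaxel group replicate 3, the library with the lowest total, was the lowest for 6 of 7.

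The test of whether the drug effect itself differed between EV labels called 4 of the 7 members, where 40.7% of all genes were called, 16.9% as larger and 23.8% as smaller in the EV-deficient label. The drug effect was larger there for Oas3 (log2 difference 3.57 ± 0.31 SE), Oas1a (3.19 ± 0.48) and Oas1b (1.71 ± 0.63; edgeR quasi-likelihood adjusted p 6.64e-09, 1.68e-05 and 0.0351). It was smaller for Oasl1, by -2.67 ± 0.32 (SE; edgeR quasi-likelihood adjusted p 7.94e-07). Oas1g (0.55 ± 0.68) and Oasl2 (0.57 ± 0.49) were not called, nor was Oas2 (adjusted p 0.0918, edgeR quasi-likelihood), whose DMSO libraries were at the floor. Oas2 was called, however, without EV-deficient paclitaxel replicate 3 (4.14), with the replicate number as a block (3.85), by DESeq2 (3.98) and with no low-count filter (3.72). The call of Oas1b was lost with limma-voom (1.45) and in 7 of 12 fits without 1 library (lowest 1.39, without EV-deficient paclitaxel replicate 2), and Oasl2 was called without EV-deficient paclitaxel replicate 3 (0.90).

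These interaction calls depended on which DMSO libraries served as controls. Once these are exchanged, a gene's value is the sum of its differences between labels under DMSO and under paclitaxel (Oasl1: 2.15 and -0.51). It is thus no separate test, and differences of opposite sign must give a value of smaller size than the interaction. With the DMSO groups exchanged, the difference for Oasl1 turned to 1.64 ± 0.32 (SE; edgeR quasi-likelihood adjusted p 0.00279), and those of Oas3 (0.56), Oas1a (0.31) and Oas1b (0.84) were no longer called, while Oasl2 was (1.77, adjusted p 0.0214, edgeR quasi-likelihood). Oas1g (1.93, adjusted p 0.0597, edgeR quasi-likelihood) and Oas2 (2.15) were not called. The opposite behaviour of Oasl1 and the other called members is thus a statement about the libraries as labelled.

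Levels of different members were compared per kilobase of annotated exon (CPM per kb). Summed over the 7 members, this level went from 1.47 ± 0.07 to 21.9 ± 3.1 CPM per kb with the drug in the EV-proficient label, and from 3.26 ± 0.31 to 33.9 ± 12.4 CPM per kb in the EV-deficient label (SD, n = 3 each). Oasl1 ranked highest in all 4 groups on this length. With the EV-proficient label it made up 41.5% ± 5.7 of the sum under DMSO and 62.4% ± 0.6 under paclitaxel, and with the EV-deficient label 84.2% ± 1.5 and 28.2% ± 3.0 (SD, n = 3 each). The share was thus higher with the drug in one label and lower in the other, and the 4 ranges did not overlap. Set against the DMSO libraries of the other label, the same shares were lower with the drug in both cases, 62.4% against 84.2% and 28.2% against 41.5%.

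**Figure D3:**
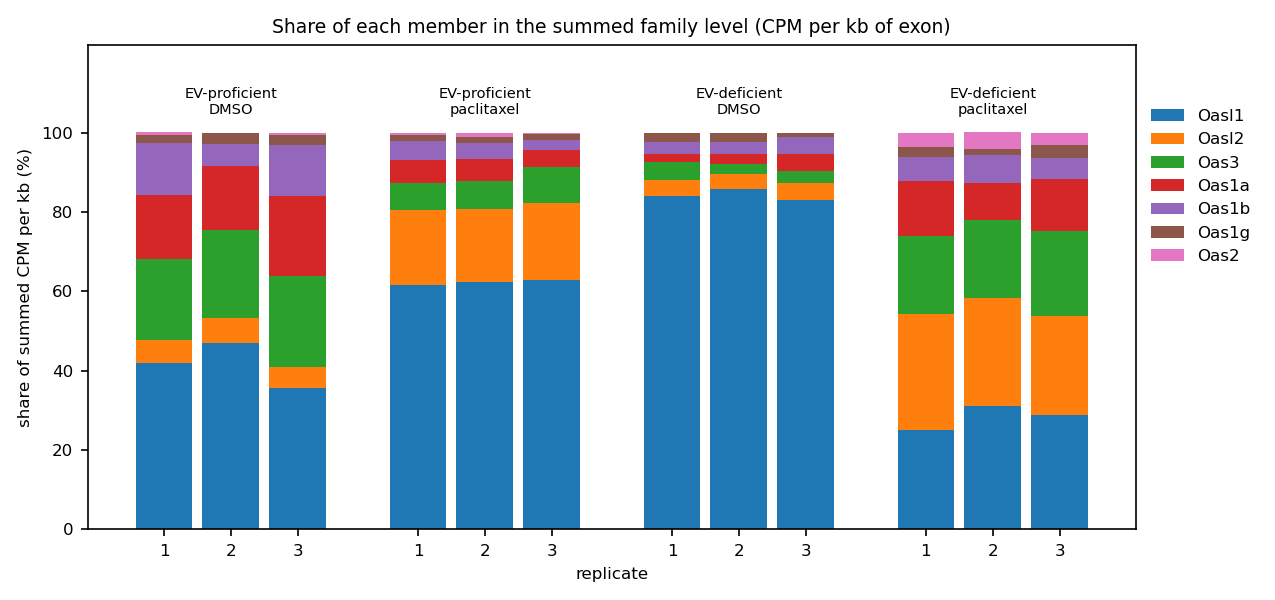
Share of each member in the summed OAS family level (CPM per kb of exon, in percent) for each library, with the 3 replicates of each group side by side. Oasl1 fills between 82.9% and 85.8% of the EV-deficient DMSO bars and between 25.0% and 31.0% of the EV-deficient paclitaxel bars.

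In EV-proficient DMSO libraries the order per kb was Oasl1 (0.612), Oas3 (0.321), Oas1a (0.255), Oas1b (0.152), Oasl2 (0.0851), Oas1g (0.0366) and Oas2 (0.00584 CPM per kb), and of neighbours only Oas1b and Oasl2 overlapped. In EV-proficient paclitaxel libraries Oasl1 (13.6) and Oasl2 (4.12 CPM per kb) led, followed by Oas3 (1.64), Oas1a (1.16), Oas1b (0.858), Oas1g (0.320) and Oas2 (0.151), with overlap only between Oas1a and Oas1b. In EV-deficient DMSO libraries Oasl1 stood alone at 2.75 CPM per kb. Next came Oasl2 (0.131), Oas1b (0.112), Oas3 (0.112), Oas1a (0.0950) and Oas1g (0.0590 CPM per kb), whose neighbours all overlapped, and then Oas2 (0.00320). In EV-deficient paclitaxel libraries every pair of neighbours overlapped in the order Oasl1 (9.62), Oasl2 (9.31), Oas3 (6.83), Oas1a (3.98), Oas1b (2.14), Oas2 (1.26) and Oas1g (0.763 CPM per kb).

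The ratio of Oasl2 to Oasl1 per kb went from 0.140 ± 0.008 to 0.302 ± 0.007 with the drug in the EV-proficient label and from 0.0478 ± 0.0047 to 0.971 ± 0.168 in the EV-deficient label (SD, n = 3 each). The 4 ranges did not overlap, so these neighbouring genes changed unequally, and the ratio was higher with the drug whichever DMSO group was used. Which of them ranks first in EV-deficient paclitaxel libraries depends on the length used: with the longest transcript (2.181 kb for Oasl1, 3.123 kb for Oasl2) Oasl2 led at 19.0 ± 7.6 against 11.5 ± 4.8 CPM per kb (SD, n = 3).

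Of 3 genes listed for the breakdown of oligoadenylates or the control of their action, 1 rose and 1 fell in the EV-proficient label, and 1 rose and 2 fell in the EV-deficient label. Over all genes 31.1% were called higher and 27.1% lower in the first label, and 32.4% and 30.5% in the second. A list of 3 genes is too short to be read against these shares. Akap7, a kinase A anchor with an oligoadenylate-cleaving domain, rose by log2 1.40 ± 0.14 and 1.51 ± 0.14 (SE). Abce1, a ribosome-recycling factor, fell by 0.38 ± 0.07 and 0.77 ± 0.07 on the log2 scale (SE). Pde12, a phosphodiesterase that degrades oligoadenylates, fell by 0.39 ± 0.07 in the EV-deficient label and was at log2 -0.16 ± 0.07 in the other (SE; edgeR quasi-likelihood adjusted p 4.57e-05 and 0.0619).

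Of 5 further genes of the Oas1 cluster, only Oas1c had enough counts to be tested. Oas1c, a paralog described as lacking synthetase activity, rose from 0.401 ± 0.033 to 2.89 ± 0.46 CPM in the EV-proficient and from 0.245 ± 0.129 to 5.16 ± 1.84 CPM in the EV-deficient label (SD, n = 3 each; log2 2.84 ± 0.32 and 4.34 ± 0.33 SE). Oas1e, Oas1f and Oas1h had at most 2 counts in any library. Oas1d had at most 2 counts in the other 9 libraries and 6 to 10 in those of the EV-deficient paclitaxel group.

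Interferon ligands were barely detected in any group. Ifnb1, which encodes interferon beta, had at most 3 counts in the 6 DMSO libraries, 1 to 5 in EV-proficient paclitaxel and 6 to 10 in EV-deficient paclitaxel libraries. Ifna1 had 0 counts throughout, which allows up to 3 counts in a library, and none of the 9 ligands of the list passed the filter. Of the 4 receptor chains in the list, 3 rose in both labels, where 31.1% and 32.4% of all genes were called higher: Ifnar1 and Ifnar2, the type I chains, by log2 0.39 ± 0.07 and 0.40 ± 0.12 in the EV-proficient and 0.75 ± 0.07 and 1.01 ± 0.12 in the EV-deficient label, and Ifnlr1, a type III chain, by 0.91 ± 0.11 and 1.37 ± 0.11 (SE). Il10rb, the other type III chain, rose by log2 1.27 ± 0.12 in the EV-deficient label and did not pass the test in the other (0.21 ± 0.12 SE; edgeR quasi-likelihood adjusted p 6.65e-09 and 0.133). The EV-proficient call of Ifnar2 was lost without paclitaxel replicate 2 (0.32) or 3 (0.30) of that label.

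Of the 13 tested genes among 22 interferon ligands, receptors, signalling and feedback genes, 9 rose and 0 fell in the EV-proficient label, and 11 rose and 1 fell in the EV-deficient label. Over all genes 31.1% were called higher and 27.1% lower in the first, and 32.4% and 30.5% in the second. The median log2 fold changes were 0.60 and 1.13. Stat2 and Irf9, which encode parts of the transcription factor complex named above, rose by log2 0.89 ± 0.12 and 2.64 ± 0.13, and by 1.34 ± 0.12 and 2.23 ± 0.12 (SE). Irf7 rose by 4.03 ± 0.23 and 5.09 ± 0.22 and Usp18, which damps type I interferon signalling, by 4.03 ± 0.29 and 5.65 ± 0.28 (SE). Socs1, another feedback inhibitor, did not pass the test in either label (-0.15 ± 0.32 and -0.21 ± 0.31 SE). The test of the difference between drug effects called 9 of the 13 genes as larger and 1 as smaller in the EV-deficient label, where 16.9% and 23.8% of all genes were. The smaller one was Irf3, a factor that starts interferon transcription, which fell by 0.34 ± 0.09 on the log2 scale in the EV-deficient label and was at 0.13 ± 0.09 in the other (SE; difference -0.47 ± 0.13); with upper-quartile scaling its fall was not called (-0.15), nor was its difference with the DMSO groups exchanged (-0.28). Irf1, another interferon regulatory factor, rose by log2 0.60 ± 0.09 and 1.13 ± 0.09 (SE; difference 0.53 ± 0.13), and Tyk2, a receptor-bound kinase, by 1.06 ± 0.09 and 0.92 ± 0.09 (SE; difference -0.14 ± 0.13, not called). The rise of Jak1, its partner kinase, in the EV-deficient label (0.18 ± 0.06 SE) was lost in 4 of 12 fits without 1 library (lowest 0.13, without EV-deficient paclitaxel replicate 3). For Stat2, Irf9, Irf7 and Usp18 the drug effect was larger in the EV-deficient label, by log2 1.75 ± 0.18 (Stat2), 0.90 ± 0.17 (Irf9), 1.06 ± 0.34 (Irf7) and 1.62 ± 0.45 (Usp18; SE, largest edgeR quasi-likelihood adjusted p 0.0159). With the DMSO groups exchanged, the difference stayed called as larger for Stat2, Irf7 and Irf1. It was not called for Irf9 (0.48), Usp18 (0.96) or the receptor chains, whose values turned negative. Limma-voom did not call the difference for Irf7 (0.95) and Usp18 (1.56). For Irf7 it was also lost without EV-proficient DMSO replicate 1 (0.91).

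Of 9 genes in the table for other sensors of double-stranded RNA and their partners, 8 rose and 0 fell in the EV-proficient label, where 31.1% of all genes were called higher, and 8 rose and 1 fell in the EV-deficient label, where 32.4% were. Zbp1, a sensor of left-handed nucleic acids, rose by log2 2.49 ± 0.29 and 3.80 ± 0.29, and Dhx58, Ifih1 and Ddx58, the RIG-I-like receptors, by 1.66 ± 0.25 and 3.04 ± 0.24, 1.54 ± 0.12 and 2.70 ± 0.12, and 0.43 ± 0.07 and 2.34 ± 0.07 (SE). Eif2ak2, the RNA-activated kinase PKR, rose by 0.21 ± 0.07 and 1.12 ± 0.07, though the first was lost in 6 of 12 fits without 1 library (lowest 0.13, without EV-proficient paclitaxel replicate 1). Tlr3, the endosomal receptor, rose by 0.92 ± 0.09 and 1.24 ± 0.08 (SE). Prkra, an activator of PKR, rose by 1.24 ± 0.12 and 0.90 ± 0.12 (SE). Adar, an RNA-editing enzyme, was at 0.02 ± 0.07 in the EV-proficient label, and its rise of 0.18 ± 0.07 in the other (SE) was lost in 8 of 12 fits without 1 library (lowest 0.13, without EV-deficient paclitaxel replicate 1). Mavs, the adaptor of the RIG-I-like receptors, was the one that fell, by 0.58 ± 0.07 in the EV-deficient label, and its rise of 0.17 ± 0.07 in the other was lost in 11 of 12 fits without 1 library (lowest 0.07, without EV-proficient paclitaxel replicate 2).

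**Figure D4:**
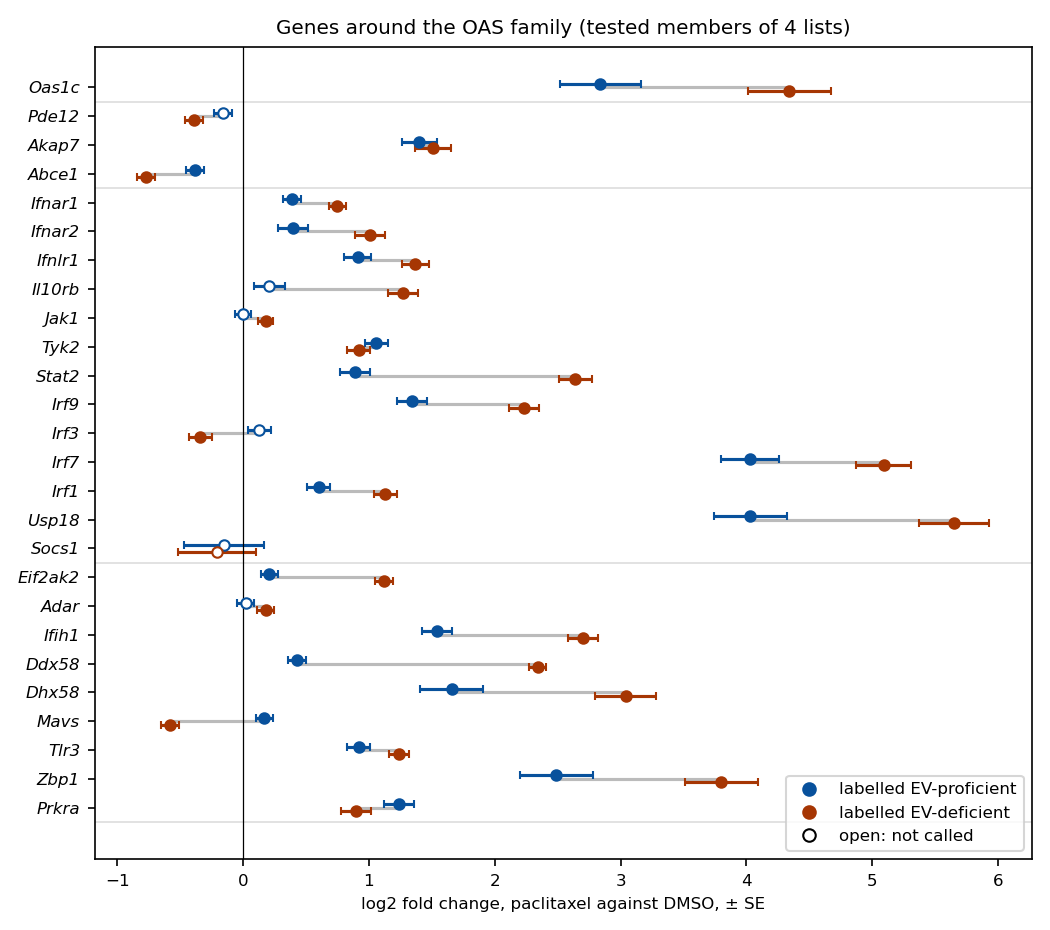
Log2 fold change with paclitaxel against DMSO, with standard errors, for the tested genes of 4 lists around the OAS family, from top to bottom the other Oas1 cluster gene, the oligoadenylate pathway, interferon signalling and the double-stranded RNA sensors. Irf7 and Usp18 lie farthest to the right, and Abce1 and Pde12 lie left of 0 in both labels, although Pde12 passed the test only in the EV-deficient one.

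Over the 12 libraries, each member's log2 CPM was correlated with the mean of the other members' standardised values. The coefficient was 0.785 for Oasl1 and between 0.945 and 0.987 for the other 6, a description of libraries that share treatment and label. Of 10229 genes with a symbol and a mean of at least 5 CPM, the 5 whose pattern was most like the members' mean were B4galt1, Ifi203 (both Pearson r 0.995), Ifit3, Apol9a (both 0.994) and Rtp4 (0.993). Ifit3, a classical interferon-stimulated gene, was at means of 0.355 and 0.375 CPM in EV-proficient and EV-deficient DMSO libraries and at 16.4 and 81.6 CPM under paclitaxel. B4galt1, a galactosyltransferase, followed the same course over a much narrower range, at 90.0 and 87.9 CPM without and 143 and 173 CPM with the drug.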

How the data were processed

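The authors deposited 1 table of whole-number read counts per gene, not normalized, for 12 poly(A)-selected, stranded libraries, per the labels' protocols. STAR 2.5.0a and GRCm38 are named in the submitters' processing notes; the counting program and its use of strand are not given in the sources used here. The table has 55423 rows, of which 2 (gfp and dngfr) were left out of library sizes and tests, and 0 columns of other samples.

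The gene tests used edgeR 4.0.16 (R 4.3.3). After filterByExpr (minimum count 10) and scaling by trimmed means (TMM), all 12 libraries entered a single quasi-likelihood fit with 4 group means, and p-values were adjusted by Benjamini-Hochberg over 18108 genes (threshold 0.05). Each standard error is the log2 fold change over the square root of its F. Fold changes against groups at or under 3 counts per library are given as bounds. Levels per kb use exon lengths of GENCODE M21, which holds 99.5% of the table's gene identifiers. Promoters came from RefSeq.

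The members, lists and alternatives were chosen with earlier results of these data known. All members are named whatever their values, with genes of 4 fixed lists and the 5 genes most like the members in pattern (log2 CPM with a prior count of 2); 2 further genes of these lists are not reported here and were left out of their counts. Replicate numbers gave no clear sign of paired libraries: 18 correlations of same-numbered libraries' deviations ran from -0.0812 to 0.097, with 0 over 0.1. Differently numbered libraries were not compared, so pairing is not excluded. Replicates differed by more than sampling noise (chi-square per degree of freedom from 4.20 to 27.8 over 12 pairs). Alternatives were other scalings and filters, DESeq2 1.42.0, limma-voom (limma 3.58.1), a replicate block, only the groups compared, each library left out, other lengths and, added after the data were seen, exchanged DMSO groups. On simulated counts for paclitaxel against DMSO in EV-proficient cells, 100% of 66 genes changed 4-fold and 60.9% of 64 changed 1.5-fold were recovered among 17224 tested by edgeR, with 7 false calls. The simulation gave every gene the same spread between replicates. The members' SD in EV-proficient paclitaxel libraries ran from 1.28% (Oas3) to 54% (Oas2) of the mean, so these recovery shares need not hold for them. Protein sequences were not used here.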

Additional observations from a re-analysis of the deposited data

Results flagged for a closer look

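The paclitaxel effect differed between the EV labels, by the test of the interaction (edgeR quasi-likelihood, adjusted p under 0.05), for 4 members: Oas3 (3.57 larger on the log2 scale in the EV-deficient label), Oas1a (3.19), Oas1b (1.71) and Oasl1 (-2.67). Among the named genes around the family it was larger there for Ddx58 (1.90), Stat2 (1.75), Usp18 (1.62), Oas1c (1.51), Dhx58 (1.38), Zbp1 (1.31), Ifih1 (1.16), Irf7 (1.06), Il10rb (1.05), Eif2ak2 (0.91), Irf9 (0.90), Ifnar2 (0.61), Irf1 (0.53), Ifnlr1 (0.47), Ifnar1 (0.36) and Tlr3 (0.32), and smaller for Mavs (-0.76), Irf3 (-0.47) and Abce1 (-0.39). Of all genes, 40.7% passed the same test. Beside Oas1b, calls were lost without 1 library for Tlr3 in 8 of 12 fits (lowest 0.25, without EV-deficient paclitaxel replicate 1), for Ifnlr1 in 3 (lowest of these 0.38, without EV-proficient DMSO replicate 2), for Oas1c without EV-deficient DMSO replicate 3 (1.26) and for Irf7 without EV-proficient DMSO replicate 1 (0.91). With the DMSO groups exchanged, the same direction was still called for Irf7 (1.16), Dhx58 (1.13), Tlr3 (0.83), Stat2 (0.64), Irf1 (0.55), Eif2ak2 (0.52) and Ddx58 (0.32). It was not called for Usp18 (0.96), Zbp1 (0.59), Irf9 (0.48), Oas1c (0.16), Ifih1 (0.07), Mavs (-0.08), Abce1 (-0.18) and Irf3 (-0.28), nor for the 4 receptor chains, whose values turned negative (-0.47 to -0.08).

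The added dngfr row, which no comparison uses, had 93 counts in its lowest library, above the 3 counts that a count of 0 allows, and its level paired EV-proficient DMSO with EV-deficient paclitaxel libraries. Its part in the interaction calls was not tested.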

How the results depend on the processing

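The 7 calls of higher level under paclitaxel in each EV label were kept in all alternatives, exchanged DMSO groups included. Of 420 fits of a member's fold change without 1 library, 404 kept direction and side of the threshold, 13 lost the call, 2 gained it and 1 turned, Oas2 between labels under DMSO without EV-proficient DMSO replicate 1 (0.02; its range over these fits was -1.40 to 0.02, with both groups at the floor). Of 271 fits under the other planned settings 260 kept both, 7 lost the call and 4 gained it. Members called between labels under DMSO went from 3 to 1 with limma-voom. The Oasl1 share with the longest transcript as length was 54.7% under paclitaxel in the EV-proficient label, and 81.9% under DMSO and 23.2% under paclitaxel in the EV-deficient label. With exchanged DMSO groups the interaction called 2 members, and the share of all genes called by that test was not computed. Values turned for Oasl1 (1.64), Ifnar1 (-0.09), Ifnar2 (-0.21), Ifnlr1 (-0.08) and Il10rb (-0.47), as did the EV-proficient paclitaxel effect on Mavs (-0.17). The cause was not tested. Upper-quartile scaling moved the median of all genes for paclitaxel in the EV-deficient label from 0.07 to 0.26.

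The replicate block, whose numbers are shared by label only, called 7, 7, 3, 7 and 5 members in the 5 comparisons against 7, 7, 3, 7 and 4 without it; the gain was Oas2 in the interaction (3.85, adjusted p 0.0282, edgeR quasi-likelihood), which DESeq2 (3.98) and a fit with no low-count filter (3.72) also called. Depth limits Oas2 without the drug (0 to 2 counts per library), Oas1g without it (3 to 9) and the interferon ligands (at most 10 in any library).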
